A study of Mus musculus with 4 samples.

Results

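The mitochondrial genome and the nuclear genes that translate it were examined in pancreatic islet cells of mice with and without the ER quality control gene Sel1L. A gene was included if its symbol began with mt-, Mrpl or Mrps (the last 2 followed by a digit) or was one of Lars2, Aars2, Vars2, Sars2, Tars2, Yars2, Iars2 and Rars2. The rule found 99 of the 19074 genes in the tables. They were 13 protein-coding genes of the mitochondrial genome, 49 genes of the large and 29 of the small subunit of the mitochondrial ribosome, and 8 mitochondrial aminoacyl-tRNA synthetases. Ribosomal and transfer RNAs of the mitochondrial genome were not analysed here. The rule used names, not values, but it was chosen with earlier results of these data known.

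Mitochondria keep a small circular genome that encodes core subunits of respiratory complexes I, III, IV and V. Both strands are transcribed as long precursors, which are then cut at the transfer RNAs between the messages, and most messages receive a poly(A) tail inside the organelle. The messages are read by a mitochondrial ribosome whose RNAs come from the mitochondrial genome and whose proteins, the MRPs, are encoded in the nucleus and imported. Aminoacyl-tRNA synthetases, also imported, charge the transfer RNAs. Beta cells depend on this system because glucose oxidation supplies the ATP that closes potassium channels and lets insulin out.

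The cells came from islets of C57BL/6 mice and were sequenced by the 10x Genomics 3′ method, in which unique molecular identifiers (UMIs) count captured RNA molecules. Both genotypes carried floxed Sel1L alleles (Sel1L f/f). The 2 wild type libraries had no Cre, and the 2 knockout libraries came from Sel1L Ins1-Cre mice, in which the insulin gene Ins1 drives Cre in beta cells. Mice were 7 weeks old by the sample labels and 5 weeks old by the series text. The islets recovered overnight in culture before dissociation. SEL1L works with the ligase HRD1 in ER-associated degradation, the route by which misfolded proteins leave the ER for destruction. No library had Cre with intact Sel1L, so Cre and the deletion cannot be told apart. The labels do not say whether the 2 libraries of a genotype are separate animals, so every p-value measures only the spread between these libraries, which may be technical.

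The libraries held 2483 to 5951 cells and 99156230 to 228515309 UMIs, and 755 of 18612 cells were removed as doublets. No deposited cell had fewer than 501 genes or over 9.96% mitochondrial UMIs, so cells above that share are missing from every value. The targeted gene Sel1l stood at 45.1 and 45.8 normalised CPM (counts per library scaled to a common size by the trimmed mean method) in wild type against 31.4 and 33.1 in knockout beta cells (log2 change -0.49, edgeR adjusted p = 0.00118), but at 1.61, 1.67, 2.04 and 2.38 UMIs per cell. It was not lower in knockout alpha, delta or other cells. The counted 3′ ends can lie outside the deleted part and do not test the deletion. Libraries shared 1 to 9 cell barcodes pairwise.

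Cells were sorted into classes by hormone UMIs. Beta cells had at least 10% insulin (Ins1 and Ins2), alpha cells at least 3% Gcg and delta cells at least 3% Sst, both with under 5% insulin, and the rest were called other. The classes held 10857, 3128, 1525 and 2347 cells, and 10 cells met both the alpha and the delta rule. Alpha markers took 31.3% to 39.3% of UMIs in alpha cells and at most 0.382% elsewhere, delta markers 10.6% to 12.2% in delta cells and at most 0.124% elsewhere. Beta markers took 47.1% to 73.9% of UMIs in beta cells and 3.55% to 5.44% in delta cells. Markers of pancreatic polypeptide cells were higher in knockout beta cells, at 0.176% and 0.153% against 3.07% and 1.65%, and they took 15.8% and 15.7% against 16.6% and 14.9% of UMIs in delta cells, wild type first, which is more than the delta markers did, and 5.54% and 5.05% against 8.98% and 5.86% in alpha cells. Nearly every delta cell, 458 of 459 and 527 of 529 in wild type against 306 of 307 and 225 of 230 in knockout libraries, had at least 3% of the pancreatic polypeptide hormones Ppy and Pyy. The part of these markers in the results was not tested. The other cells were a mixture: 139 and 215 wild type and 309 and 152 knockout cells also had at least 3% Ppy and Pyy. Pancreatic polypeptide cell markers took 26.2% and 33.7% of UMIs in wild type against 23.8% and 19.5% in knockout other cells. Endothelial markers took 0.260% to 0.356% and macrophage markers 0.201% to 0.308%. Erythroid markers took 0.113% in the first knockout library, against 0 and 0.000466% in wild type and 0.000862% in the second knockout library. In addition, 11 and 5 wild type and 69 and 23 knockout cells of this class had 5% to 10% insulin.

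Mitochondrial messages differ from nuclear ones in that neighbouring genes can overlap and share 1 RNA. Reading frames of the complex V genes mt-Atp8 and mt-Atp6 overlap by 43 bases, and those of the complex I genes mt-Nd4l and mt-Nd4 by 7 bases. The ends of the upstream and the starts of the downstream frames are shown because of what follows. The 2 upstream genes had the lowest log2 changes of the 13 in every class. They were also the only ones whose UMIs per cell were not higher in both knockout libraries. They come from GENCODE vM21 transcripts (GRCm38, plus strand), 60 bases each, at chrM:7910-7969, chrM:7927-7986, chrM:10114-10173 and chrM:10167-10226, with the shared bases in capitals.
mt-Atp8: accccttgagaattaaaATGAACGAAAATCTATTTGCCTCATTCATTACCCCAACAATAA
mt-Atp6: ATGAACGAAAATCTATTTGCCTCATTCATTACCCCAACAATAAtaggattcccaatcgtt
mt-Nd4l: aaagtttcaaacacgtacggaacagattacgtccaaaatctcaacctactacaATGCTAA
mt-Nd4: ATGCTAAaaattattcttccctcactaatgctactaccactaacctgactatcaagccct
Reads of 1 shared RNA are divided between the frames according to where they fall. On the opposite strand, mt-Nd6 overlaps mt-Nd5 by 14 bases.

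Mitochondrially encoded UMIs took a larger share of each knockout library in every class. In beta cells the share was 1.84% and 1.79% in wild type against 3.69% and 3.62% in knockout libraries, 2.02-fold higher on average (wild type 1.81% ± 0.0317, knockout 3.66% ± 0.0540; SD, n = 2). Alpha cells gave 2.59% and 2.56% in wild type against 3.87% and 3.85% in knockout libraries, a ratio of 1.5. In delta cells the values were 2.84% and 2.73% in wild type against 3.90% and 3.76% in knockout libraries, and in other cells 2.49% and 2.39% in wild type against 3.83% and 3.81% in knockout libraries, ratios of 1.38 and 1.56. The groups did not overlap in any class. With 2 libraries a genotype, the exact two-sided permutation test cannot go below p = 0.333, which each comparison gave.

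Insulin makes up much of the beta cell denominator and was lower in knockout. It took 67.7% and 68.4% in wild type against 40.9% and 44.6% in knockout libraries. When UMIs of 7 hormone genes (Ins1, Ins2, Iapp, Gcg, Sst, Ppy and Pyy) were left out, the mitochondrial share of beta cells was 6.82% and 6.90% in wild type against 7.42% and 7.52% in knockout libraries, a ratio of 1.09 in place of 2.02. The same step left alpha cells at 4.50% and 4.55% against 6.41% and 6.19%, delta cells at 4.17% and 4.04% against 5.59% and 5.29% and other cells at 3.44% and 3.66% against 5.22% and 4.83%, wild type first, with ratios of 1.39, 1.32 and 1.42. By this measure wild type beta cells had the highest mitochondrial share of the 4 classes, and beta cells had the smallest ratio between genotypes. Whether the ratio differs between classes was not tested for the sum; single genes were.

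Mitochondrial UMIs per cell were also higher. Beta cells held 871 and 927 in wild type against 1719 and 1934 in knockout libraries, and alpha cells 500.0 and 516 in wild type against 1128 and 1110.1 in knockout libraries. For delta cells the means were 345 and 364 against 691 and 721, and for other cells 321 and 344 against 782 and 749, wild type first. Total UMIs differed too: the median alpha cell had 17661 and 18852 against 25927 and 26688, the median delta cell 11489 and 12508 against 16496 and 18178 and the median other cell 10645 and 12155 against 20210.5 and 17884, while beta medians overlapped between genotypes at 46748 and 49668 against 43687 and 51224. Gm42418 and AY036118, transcripts of ribosomal RNA repeats, took 0.160% and 0.172% against 0.329% and 0.317% of hormone-free UMIs in beta cells and 0.304% and 0.262% against 0.578% and 0.613% in alpha cells. The nuclear RNA Malat1 overlapped between genotypes in beta cells, at 2.83% and 2.51% against 2.65% and 3.0%, and in alpha and delta cells, but in other cells it was lower in both knockout libraries, at 4.06% and 4.0% against 3.44% and 3.50%. The part of depth and of these transcripts in the mitochondrial difference was not tested.

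**Figure D1:**
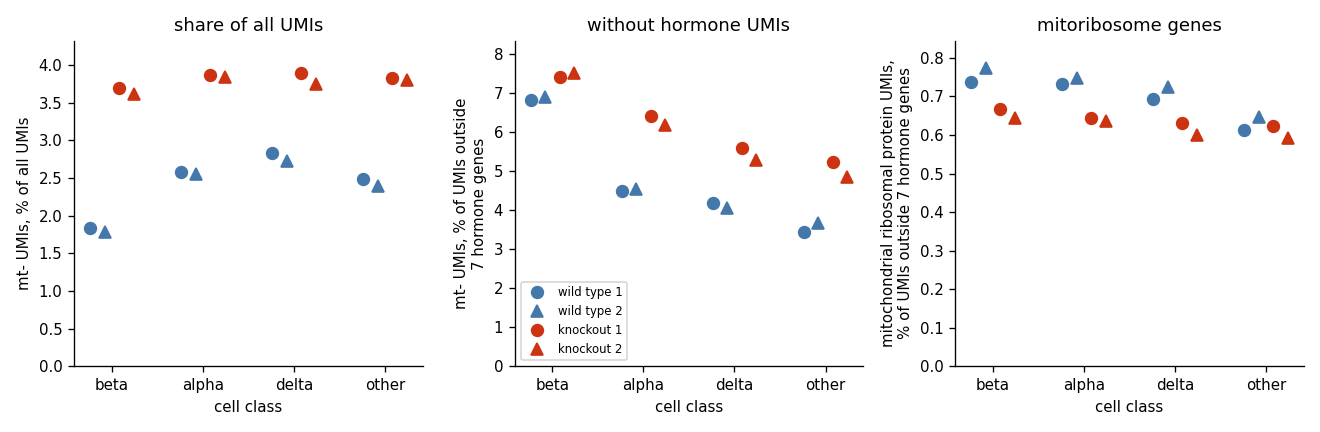
Share of UMIs by cell class and library (points; blue wild type, red knockout; circles replicate 1, triangles replicate 2). Left, mitochondrially encoded UMIs as a percentage of all UMIs, with both knockout libraries above both wild type libraries in every class; middle, the same without 7 hormone genes, where the beta cell values lie close together; right, UMIs of the 78 mitochondrial ribosomal protein genes without hormone genes, lower in knockout beta, alpha and delta cells and overlapping in other cells, although their UMIs per cell were higher in both knockout libraries of every class and, in beta cells, so was their share of all UMIs.

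Set against nuclear genes of oxidative phosphorylation (OXPHOS), the mitochondrial sum was higher in knockout cells. Most of these nuclear genes encode other subunits of the same complexes, and genes of complex II and cytochrome c were listed too. The ratio of mitochondrially encoded to nuclear OXPHOS UMIs, into which insulin does not enter, was in beta cells 1.90 and 1.91 in wild type against 2.42 and 2.50 in knockout libraries. In alpha cells it was 1.22 and 1.28 in wild type against 2.02 and 1.96 in knockout libraries. Delta cells gave 1.32 and 1.27 against 2.02 and 1.94 and other cells 1.5 and 1.56 against 2.20 and 2.19. The 2 genotypes were apart in all 4 classes, and the exact permutation p of each was 0.333. The ratio of mitochondrial to MRP UMIs was also higher, by 1.25-fold in beta and 1.61-fold in alpha cells.

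Individual beta cells varied widely around these values. The middle 50% of wild type beta cells spanned 1.41% to 2.29% and 1.40% to 2.15% mitochondrial UMIs. In knockout beta cells they spanned 3.10% to 4.38% and 3.06% to 4.24%, so the middle ranges did not meet. Cells with over 5% mitochondrial UMIs were 2.19% and 0.827% against 13.4% and 10.5% of beta cells, wild type first. Across beta cells of a library, Spearman's rho between the hormone-free shares of mitochondrial and of MRP UMIs was -0.40, -0.29, -0.20 and -0.16 in the wild type and then the knockout libraries (3555, 3508, 2421 and 1373 cells, which share a library and a common denominator).

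Within the mitochondrial UMIs, the messages did not move together. Shares of the 13 genes in their own sum need no scaling between libraries. The cytochrome c oxidase messages mt-Co1, mt-Co2 and mt-Co3 and the ATP synthase message mt-Atp6 were the most abundant in beta cells, at 14.1% to 18.3% of mitochondrial UMIs each in wild type. The rarest was mt-Nd6, the only one read from the other strand, at 0.0658% and 0.0669% in wild type against 0.0616% and 0.0641% in knockout cells.

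Of all 13, the complex I gene mt-Nd4l differed most. Its share in beta cells was 2.76% and 2.3% in wild type against 0.932% and 0.937% in knockout, 2.71-fold lower. Alpha cells showed 3.21% and 2.61% against 1.03% and 1.12%, delta cells 3.16% and 2.46% against 1.14% and 1.18% and other cells 3.70% and 2.90% against 1.28% and 1.48%, wild type first. The ATP synthase gene mt-Atp8 followed, with 1.09% and 0.804% against 0.422% and 0.474% in beta cells and 0.905% and 0.693% against 0.351% and 0.404% in alpha cells. Both wild type libraries exceeded both knockout libraries for these 2 genes in every class, and the first wild type library was the highest each time. The large complex I subunit mt-Nd5 was also lower in every class, from 2.23% and 2.03% against 1.41% and 1.47% in beta cells to 2.11% and 2.05% against 1.43% and 1.64% in other cells.

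Other messages took larger shares. The cytochrome c oxidase subunit mt-Co3 was 14.1% and 14.0% in wild type against 17.7% and 17.3% in knockout beta cells and 14.9% and 14.9% in wild type against 19.1% and 18.6% in knockout alpha cells, 1.24-fold and 1.26-fold higher. The complex I subunit mt-Nd1 was higher in all 4 classes. The complex I subunit mt-Nd2 was lower in knockout beta cells (4.99% and 5.01% against 4.18% and 4.25%) and higher in alpha (5.05% and 4.96% against 5.96% and 6.20%) and delta cells (4.68% and 4.52% against 5.21% and 5.28%), wild type first in each. mt-Co1 was lower in knockout alpha (17.5% and 17.1% against 14.3% and 14.8%), delta and other cells and overlapped between genotypes in beta cells (18.8% and 17.8% against 18.6% and 18.9%). In all, 2 genes had higher and 7 lower shares in both knockout libraries of beta cells, 5 and 7 in alpha, 4 and 6 in delta and 4 and 6 in other cells. Lack of overlap was common: by normalised CPM, a different measure, it held for 74.2%, 59.8%, 55.6% and 53.2% of all genes tested in these classes.

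The 2 upstream frames were then set against the frames they overlap. The number of mt-Nd4l UMIs per 100 mt-Nd4 UMIs was in beta cells 37.8 and 30.7 in wild type against 15.1 and 14.5 in knockout. Alpha cells had 42.4 and 33.5 in wild type against 16.5 and 17.4 in knockout, delta cells 44.3 and 33.7 in wild type against 18.7 and 18.0 in knockout and other cells 47.3 and 36.4 in wild type against 19.7 and 21.4 in knockout. The ratio was 2.03 to 2.32 times lower in knockout cells. For mt-Atp8 per 100 mt-Atp6 UMIs, beta cells had 6.71 and 4.50 in wild type against 2.31 and 2.66 in knockout and alpha cells 5.64 and 4.02 in wild type against 1.93 and 2.31 in knockout. Here the knockout values were 2.06 to 2.28 times lower, and the wild type libraries differed from each other by more than the knockout libraries did. Each exact permutation p was 0.333. Since both frames of a pair lie on 1 RNA, the deposited counts do not tell a change in the RNA from a change in where along it the reads fell.

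**Figure D2:**
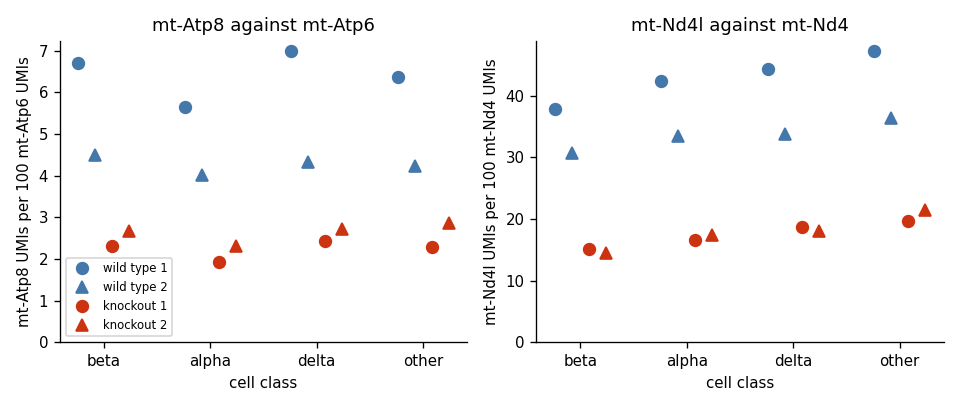
UMIs of an upstream mitochondrial reading frame per 100 UMIs of the frame it overlaps, by cell class and library (points; blue wild type, red knockout; circles replicate 1, triangles replicate 2). Left, mt-Atp8 against mt-Atp6; right, mt-Nd4l against mt-Nd4; knockout libraries lie below wild type libraries in all 4 classes.

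Gene by gene tests compared UMI sums per library with edgeR's quasi-likelihood test. Values were scaled by trimmed mean (TMM) normalization, which sets the median gene near 0, so each log2 change of knockout over wild type is relative to the median gene. This matters here: with library size alone the median gene stood at 0.91 in beta cells and at 0.23, 0.16 and 0.28 in alpha, delta and other cells, and per cell at 0.92, 0.78, 0.68 and 0.84. A call is an adjusted p under 0.05 (Benjamini-Hochberg over all genes tested in the class). In beta cells 20.3% of 14817 genes were called higher and 21.1% lower, 41.4% in all, so a call was common there. In alpha cells 6.19% and 9.22% of 12758 genes were called (15.4% in all), in delta cells 2.94% and 4.76% of 11647 (7.69%), and in other cells 0.445% and 0.49% of 13252 (0.936%). Of the members, 3 were called higher and 46 lower of 99 in beta cells, 8 and 49 of 99 in alpha cells, 7 and 16 of 98 in delta cells, and 2 and 1 of 98 in other cells. Leaving out the second knockout library lowered the beta count from 49 to 31 members.

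In beta cells 1 of the 13 mitochondrial genes was called higher and 3 lower, with a median log2 change of 0.025 beside 0.0043 over all genes. The message mt-Nd4l stood at 671 and 584 normalised CPM in wild type against 247 and 252 in knockout beta cells and fell under this and every other scaling (log2 change -1.33, SE 0.0942, adjusted p = 0.000172). For mt-Atp8 the values were 265 and 204 in wild type against 112 and 128 in knockout cells (log2 change -0.97, SE 0.134, adjusted p = 0.00176), but its UMIs per cell overlapped between genotypes, at 9.48 and 7.46 UMIs per cell in wild type against 7.25 and 9.17 in knockout. mt-Nd5 had 543 and 515 in wild type against 374 and 397 in knockout cells (log2 change -0.46, SE 0.0812, adjusted p = 0.00471), and per cell it was higher by 0.46 (log2); its call was lost without the first knockout library (adjusted p = 0.0555). These 3 genes separated the genotypes on the relative scale, as did 74.2% of all genes tested.

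The gene called higher was mt-Co3, with 3441 and 3559.6 normalised CPM in wild type against 4681 and 4657 in knockout beta cells (log2 change 0.42, SE 0.0964, adjusted p = 0.0137); the call was lost without either knockout library (adjusted p = 0.0908 and 0.0953). Its neighbour mt-Atp6 had 3949 and 4538 in wild type against 4825 and 4796 in knockout cells (log2 change 0.18, SE 0.111, adjusted p = 0.229), and mt-Nd1 had 884 and 851 in wild type against 982 and 1071 in knockout cells (log2 change 0.24, SE 0.0894, adjusted p = 0.0677). Neither was called. The most abundant message, mt-Co1, stood at 4567 and 4505 in wild type against 4913 and 5084 in knockout cells (log2 change 0.14, SE 0.0981, adjusted p = 0.291), without overlap between genotypes but short of the threshold. Those of mt-Cytb and mt-Nd6, 2759 and 3040.1 in wild type against 2847 and 2820.1 in knockout cells and 16.0 and 17 in wild type against 16.3 and 17.2 in knockout cells, overlapped. mt-Co2, mt-Nd2, mt-Nd3 and mt-Nd4 had log2 changes of 0.12, -0.14, 0.32 and -0.12 and were not called. Per cell, 11 of 13 genes were higher in both knockout libraries, mt-Atp8 and mt-Nd4l being the exceptions.

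Alpha cells, a type in which the Ins1 promoter that drives Cre is not normally active, had 7 mitochondrial genes called higher and 3 lower, with a median of 0.31 beside 0.012 over all genes. mt-Co3 stood at 4151 and 4136 normalised CPM in wild type against 7023 and 6443 in knockout alpha cells (log2 change 0.70, SE 0.0973, adjusted p = 0.00509). The complex I messages mt-Nd1 and mt-Nd2 had 1191 and 1101 in wild type against 1816 and 1827 in knockout cells (log2 change 0.67, SE 0.0853, adjusted p = 0.00349) and 1408 and 1375 in wild type against 2194 and 2149 in knockout cells (log2 change 0.64, SE 0.0837, adjusted p = 0.00379). mt-Nd3, mt-Atp6, mt-Co2 and mt-Cytb were also called higher, at 0.76, 0.46, 0.34 and 0.31. All 7 separated the genotypes on this scale, as did 59.8% of all genes tested. Calls of mt-Co2 and mt-Cytb were lost without any 1 of the 4 libraries, that of mt-Atp6 without the first wild type or either knockout library, that of mt-Nd3 without either knockout library and that of mt-Nd1 without the second.

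Markers of some other cell types were higher in the same knockout alpha cells, and those of others were not. Of the cycling markers 4 of 4 tested were called higher (5 listed, median log2 2.46), and their sum took 0.000159% and 0.000324% against 0.00094% and 0.00169% of UMIs, wild type first. Endothelial markers had 4 of 8 called higher (median 1.71), at 0.000896% and 0.00096% against 0.00164% and 0.00168%. Of 5 erythroid markers the 1 tested was called higher in alpha cells and 4 of 4 tested in beta cells. The summed share of beta markers was lower in knockout alpha cells, at 0.713% and 0.842% against 0.382% and 0.421%, as was that of lymphocyte markers. Insulin alone took 0.498% and 0.586% against 0.171% and 0.187%. Per cell, the beta markers Ins1, Ins2 and Mafa were lower in both knockout libraries and Slc2a2 overlapped. Iapp, Nkx6-1, Pdx1, G6pc2, Ucn3 and Slc30a8 were higher per cell in both. Macrophage and ductal markers overlapped between genotypes there. In beta cells 2 of 5 cycling markers were called lower and 0 higher relative to the median gene. With library size alone 2 were called higher and 0 lower, and scaled by cell number 3 and 0. Macrophage markers had 3 lower and 0 higher of 6 tested relative to the median gene, and ductal markers 3 lower and 1 higher of 5 tested. Scaled by cell number, macrophage markers had 2 lower and 0 higher and ductal markers 1 lower and 2 higher. On that scale 12651 of all 14817 genes were called higher and 321 lower. The part of other cell types or their RNA in the alpha and beta results was not tested.

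The 3 lower genes were those called lower in beta cells. mt-Nd4l had 895 and 722 normalised CPM in wild type against 379 and 388 in knockout alpha cells (log2 change -1.08, SE 0.102, adjusted p = 0.000615) and mt-Atp8 253 and 192 in wild type against 129 and 140.0 in knockout cells (log2 change -0.73, SE 0.114, adjusted p = 0.00733), although mt-Atp8 was level per cell (log2 0.059). mt-Nd5 stood at -0.29, while per cell it was higher by 0.49, and its call was lost without any 1 of the 4 libraries. Without the first and without the second knockout library, 3 and 2 mitochondrial genes were still called higher and 0 lower, when only 53 and 32 genes were called in all; mt-Nd4l then had adjusted p = 0.0511 and 0.0544.

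In delta cells 6 mitochondrial genes were called higher and 2 lower. mt-Co3 stood at 4026 and 3893 normalised CPM in wild type against 6724 and 6126 in knockout delta cells (log2 change 0.70, SE 0.0789, adjusted p = 0.000524), and mt-Nd1 and mt-Nd2 at log2 changes of 0.55 and 0.50. mt-Nd3, mt-Atp6 and mt-Co2 were at 0.73, 0.39 and 0.30; the calls of mt-Atp6 and mt-Co2 were lost without either knockout library, that of mt-Nd3 without the second, and that of mt-Co2 also without the second wild type library. mt-Nd4l had 946 and 708 in wild type against 426 and 419 in knockout cells (log2 change -0.97, SE 0.114, adjusted p = 0.000748), and mt-Atp8 fell by 0.74, though level per cell, a call lost without the first and without the second knockout library (adjusted p = 0.0584 and 0.0534). Among other cells, mt-Co3 was called higher, with 3272 and 3567 normalised CPM in wild type against 6242 and 5526 in knockout other cells (log2 change 0.78, SE 0.0975, adjusted p = 0.0373), and mt-Nd4l lower (log2 change -0.89, SE 0.130, adjusted p = 0.0400). That class was thin in calls, and without the first knockout library neither gene was called (adjusted p = 0.0554 and 0.0786). Without the first wild type library mt-Nd4l was not called either (adjusted p = 0.0860). Leaving out Ppy and Pyy cells gave 0.0760 for mt-Nd4l, and keeping only cells under 5% mitochondrial UMIs left no member called (21 at an unadjusted p under 0.05 by edgeR).

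**Figure D3:**
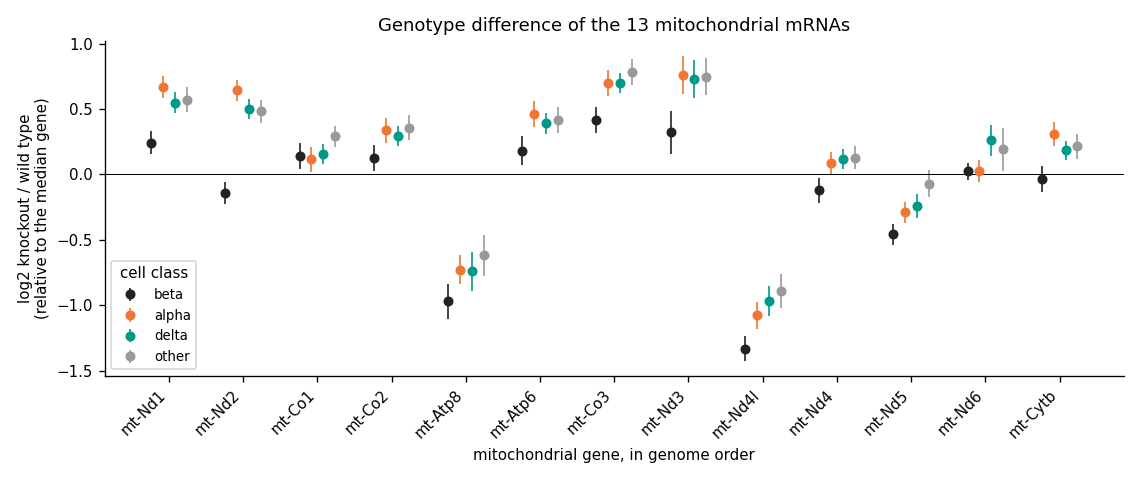
Log2 change of knockout over wild type, relative to the median gene, of the 13 mitochondrial mRNAs in genome order (points, edgeR estimates; bars, SE; colours, cell classes). mt-Nd4l and mt-Atp8 are the lowest in every class, and the beta cell values lie below the alpha cell values for 12 of 13 genes; per cell, all but mt-Nd4l and mt-Atp8 were higher in both knockout libraries.

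Mitochondrial ribosomal protein genes lagged behind the median gene in knockout beta cells while their UMIs per cell were higher. Of 78, 39 were called lower and 1 higher relative to the median gene, with a median log2 change of -0.21 beside 0.0043 over all genes, whereas scaled by cell number 76 were called higher and 0 lower (median 0.71 beside 0.92). On that scale 12651 of all 14817 genes were called higher and 321 lower. Summed UMIs of the MRP genes per cell were 94.2 and 104 in wild type against 155 and 166 in knockout libraries. As a share of hormone-free UMIs they took 0.737% and 0.773% in wild type against 0.668% and 0.645% in knockout libraries, a ratio of 0.870, but as a share of all UMIs 0.198% and 0.201% against 0.333% and 0.310%, a ratio of 1.61, so the direction turned with the denominator. Both knockout libraries were below both wild type libraries on the relative scale for 52 genes and above for 4, with 22 overlapping; over all genes tested, 74.2% did not overlap either way.

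Both subunits contributed. Of 49 large subunit genes 27 were called lower and 1 higher (median -0.25), and of 29 small subunit genes 12 were called lower and 0 higher (median -0.19). Per cell, every one except Mrps22 was higher in both knockout libraries. The ratio of large to small subunit UMIs was 1.56 and 1.54 in wild type against 1.49 and 1.5 in knockout libraries, without overlap between genotypes.

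The largest relative fall was in Mrps22 (chr9:98588730-98601660, minus strand), a small subunit protein, with 4.97 and 5.18 normalised CPM in wild type against 3.0 and 2.48 in knockout beta cells (log2 change -0.88, SE 0.116, adjusted p = 0.00147); per cell it was level, at 0.178 and 0.189 UMIs per cell in wild type against 0.195 and 0.178 in knockout. The large subunit gene Mrpl41 (chr2:24974117-24975098, minus strand) had 36.9 and 39.4 in wild type against 24.6 and 22.8 in knockout cells (log2 change -0.68, SE 0.0688, adjusted p = 0.000574). Next came Mrps31, with 11.6 and 14.2 in wild type against 8.65 and 8.14 in knockout cells (log2 change -0.62, SE 0.103, adjusted p = 0.00365). All 3 were lower in both knockout libraries on this scale, and the latter 2 were higher per cell by 0.23 and 0.30 (log2).

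Mrpl36 stood at 46.1 and 52.7 normalised CPM in wild type against 32.1 and 32.6 in knockout beta cells (log2 change -0.61, SE 0.0786, adjusted p = 0.00135), and Mrpl21 and Mrps10 fell by 0.56 and 0.56. Their UMIs per cell were higher by 0.31, 0.36 and 0.36. Exons of Mrpl36 overlap Ndufs6 and those of Mrpl21 overlap Ighmbp2 on the opposite strand; whether the counting used strand is not given in the sources used here. Over all members, exons of 9 overlap another gene on the same strand and of 27 on the opposite strand, so their counts may be shared.

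The 3 most abundant MRP genes by mean over both genotypes were mixed. Mrps33, the highest, had 151 and 156 normalised CPM in wild type against 158 and 144 in knockout beta cells (log2 change -0.024, SE 0.0766, adjusted p = 0.820). Mrps21 had 105 and 105 in wild type against 77.8 and 79.6 in knockout cells (log2 change -0.42, SE 0.0632, adjusted p = 0.00245) and Mrpl54 79.8 and 89.3 in wild type against 83.0 and 77.7 in knockout cells (log2 change -0.073, SE 0.0796, adjusted p = 0.494). Mrps21 was called lower on the relative scale and the others overlapped. Per cell all 3 were higher, by 0.89, 0.50 and 0.84. In wild type alone Mrpl33, named after its values were seen, came next after Mrps33 and Mrps21, with 92.0 and 95.5 in wild type against 66.7 and 68.4 in knockout cells (log2 change -0.47, SE 0.0641, adjusted p = 0.00165), and per cell it was higher by 0.45. Mrpl45, the 1 gene called higher, had 7.68 and 7.69 in wild type against 9.17 and 8.69 in knockout cells (log2 change 0.22, SE 0.0693, adjusted p = 0.0424). Its call was lost without any 1 of the 4 libraries (adjusted p from 0.0658 to 0.242).

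Promoter sequence was examined because 39 of the 78 genes were called lower on the relative scale. RefSeq windows (GRCm38.p6) from 250 bases before to 50 bases after the start were found for 69 of the 78 genes. The ETS factor motif CCGGAAG, searched on both strands, was in 37.7% of them and in 16.2% of 13635 promoters of all genes. This motif was in 30.6% of the 36 called lower and 45.5% of the 33 not called lower. GCATGCG, the core of the NRF1 site, was in 11.6% against 6.23%, AAGATGG, a core of the YY1 site, in 18.8% against 7.60%, and ACAATTC, a core of the ZNF143 site, in 2.90% against 2.54%. In the 36 genes called lower against the 33 others these 3 motifs were in 8.33% against 15.2%, 25% against 12.1% and 0% against 6.06%. A match describes letters in the window and is not a measured site.

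The 100 bases before the start of the 2 genes with the largest relative falls are shown, with the motif match in capitals, on the minus strand of chr9:98601680-98601779 and chr2:24975099-24975198. Mrps22 holds 1 ETS match close to its start and Mrpl41 holds none of the 4 motifs in this stretch.
Mrps22: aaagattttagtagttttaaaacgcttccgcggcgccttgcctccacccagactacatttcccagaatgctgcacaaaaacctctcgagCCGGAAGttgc
Mrpl41: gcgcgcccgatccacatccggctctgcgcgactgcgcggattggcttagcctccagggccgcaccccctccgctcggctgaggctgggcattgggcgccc

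In alpha cells 46 of 78 MRP genes were called lower and 0 higher relative to the median gene, with a median of -0.29. DESeq2 called 31 lower and 0 higher, where it called 884 genes in all, 20.5% of them higher. Scaled by cell number 77 MRP genes were called higher. Scaled that way 11186 of all 12758 genes were called, 99.7% of them higher. By library size alone 2 MRP genes were called higher and 1 lower, where 3420 genes were called, 95.0% of them higher. Mrpl54 stood at 131 and 128 normalised CPM in wild type against 95.7 and 93.7 in knockout alpha cells (log2 change -0.45, SE 0.0666, adjusted p = 0.00605) and the small subunit gene Mrps16 at 99.9 and 99.7 in wild type against 74.6 and 73.7 in knockout cells (log2 change -0.43, SE 0.0658, adjusted p = 0.00688); per cell they were higher by 0.32 and 0.35. Without either knockout library 0 of the 78 were called, while 66 and 65 members of all kinds had an unadjusted p under 0.05 by edgeR. Both knockout libraries were below both wild type libraries for 70 genes (59.8% of all genes did not overlap either way). Mrps22, the largest relative fall of beta cells, overlapped here, at 10.4 and 10.6 in wild type against 9.51 and 11.0 in knockout cells.

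In delta cells 14 of 77 tested MRP genes were called lower and 0 higher relative to the median gene, with a median of -0.29. DESeq2 called 6 lower and 0 higher, where it called 404 genes in all, 18.3% of them higher. Scaled by cell number 56 MRP genes were called higher. Scaled that way 8980 of all 11647 genes were called, 99.6% of them higher. Mrpl54 had 143 and 153 normalised CPM in wild type against 111 and 103 in knockout delta cells (log2 change -0.47, SE 0.0876, adjusted p = 0.0102), and Mrpl48 had 79.3 and 78.9 in wild type against 59.2 and 55.1 in knockout cells (log2 change -0.47, SE 0.0955, adjusted p = 0.0160). The MRP count was 0 without the second wild type or the second knockout library, 4 without the first knockout and 7 without the first wild type library, where edgeR gave 42, 38, 54 and 55 members of all kinds an unadjusted p under 0.05. In other cells 0 of 77 were called by edgeR or DESeq2, with 28 members of all kinds at an unadjusted p under 0.05 by edgeR and a median of -0.19. Scaled by cell number 76 MRP genes were called higher there, where 10457 of all 13252 genes were called, 99.8% of them higher.

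Cytosolic ribosomal protein genes, the counterpart outside the organelle, were set beside the MRP genes. In beta cells 37 of 77 were called higher and 2 lower (median 0.24), and the ratio of mitochondrial to cytosolic ribosomal protein UMIs was 0.0597 and 0.0648 in wild type against 0.0459 and 0.0434 in knockout libraries. The knockout values were lower, and the exact permutation p was 0.333. In alpha cells 5 were called higher and 7 lower, and the ratio was 0.0358 and 0.0388 in wild type against 0.0330 and 0.0344 in knockout libraries. Per cell, 76 of 77 cytosolic genes were called higher in both classes. On that scale 12651 of all 14817 genes were called higher in beta cells. In alpha cells 11186 of 12758 were called, 99.7% of them higher.

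**Figure D4:**
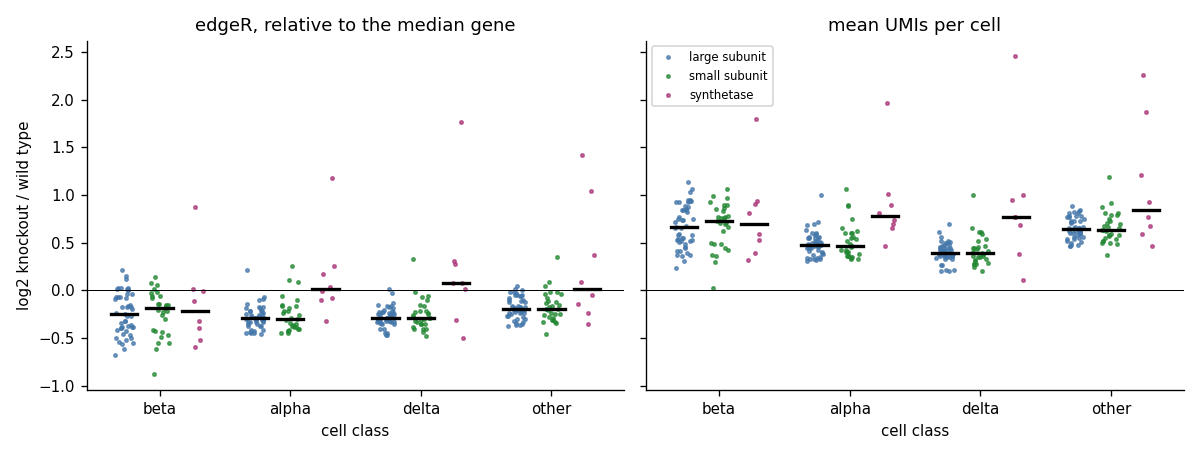
Log2 change of knockout over wild type of mitochondrial ribosomal protein genes (large and small subunit) and 8 synthetases by cell class (points, genes; black bars, medians). Left, edgeR estimates relative to the median gene, where ribosomal protein genes lie mostly below 0; right, ratios of mean UMIs per cell, where they lie above 0. The highest synthetase point in each class is Lars2.

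Among the 8 synthetases Lars2, which charges the mitochondrial leucine transfer RNA, stood apart. In beta cells it had 33.3 and 35.1 normalised CPM in wild type against 61.3 and 64.0 in knockout beta cells (log2 change 0.87, SE 0.0648, adjusted p = 0.000197). In alpha cells the values were 54.4 and 59.7 in wild type against 122 and 138 in knockout cells (log2 change 1.18, SE 0.0840, adjusted p = 9.03e-05). Delta cells gave 54.0 and 56.9 in wild type against 184 and 195 in knockout cells (log2 change 1.77, SE 0.0898, adjusted p = 1.5e-07), and other cells 68.4 and 61.3 in wild type against 154 and 194 in knockout cells (log2 change 1.42, SE 0.145, adjusted p = 0.0262). It rose in every class, under each scaling tried and with each library left out, except that in other cells the call was lost when cells over 5% mitochondrial UMIs were left out (adjusted p = 0.0734). It had 1.19 and 1.28 UMIs per cell in wild type against 3.98 and 4.60 in knockout beta cells. No stretch over 14 bases was shared between any of 9 annotated Lars2 transcripts and 37 mitochondrial transcripts. The ribosomal RNA repeat transcripts named above were also higher in every class, and their part in the Lars2 counts was not tested.

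None of the other 7 synthetases was called higher. Yars2, Sars2, Rars2 and Aars2, for tyrosine, serine, arginine and alanine, fell in beta cells by 0.52, 0.59, 0.32 and 0.39, but were higher per cell by 0.40, 0.31, 0.59 and 0.53. Yars2 stood at 5.30 and 5.93 normalised CPM in wild type against 4.01 and 3.81 in knockout beta cells (log2 change -0.52, SE 0.0969, adjusted p = 0.00584). The calls of Rars2 and Sars2 were lost without the second knockout library, and that of Aars2 without any 1 library. Iars2, Tars2 and Vars2, for isoleucine, threonine and valine, were not called, with 14.6 and 14.7 in wild type against 14.4 and 14.7 in knockout cells for Iars2. In alpha, delta and other cells none of these 7 was called by edgeR; 1, 0 and 1 had an unadjusted p under 0.05.

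Because knockout beta cells held less insulin, beta cells were also compared at a like insulin share. At 50% to 60% insulin there were 275, 192, 396 and 325 cells in the wild type and then the knockout libraries. Mitochondrial UMIs were 6.48% and 6.46% of hormone-free UMIs in wild type against 7.81% and 7.80% in knockout cells. MRP UMIs were 0.743% and 0.763% against 0.665% and 0.639%. In these cells 7 mitochondrial genes were called higher and 3 lower, and 26 MRP genes lower and 1 higher relative to the median gene. Over all genes, 3771 were called in these cells, 50.04% of them higher. Cells of this range are not typical of either genotype: 1829 and 1896 wild type cells lay at 60% to 70%, but 53 and 57 knockout cells.

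Along the insulin share, the hormone-free mitochondrial share of knockout beta cells went from 7.11% and 7.23% at 10% to 20% insulin to 9.03% and 9.11% at 60% to 70%. As a share of all UMIs it went the other way over the same bins, from 4.94% and 5.21% to 2.79% and 2.92%. In the first wild type library the hormone-free share was 7.93% at 20% to 30% insulin (32 cells) and 6.27% at 40% to 50% (90 cells). Knockout cells had 7.15% and 7.33% at 20% to 30%. The MRP share of that wild type library was 0.517% there against 0.679% and 0.659% in knockout. At 30% to 40% it was 0.599% (59 cells) against 0.663% and 0.644%. In both bins the MRP direction was opposite to that at 50% to 60%, and the second wild type library had under 20 cells. A small set of wild type cells stood out: 39 and 45 cells at 80% to 90% insulin had 14.1% and 14.0% mitochondrial UMIs among hormone-free UMIs, against 6.84% and 7.15% at 70% to 80%. Per cell they had fewer mitochondrial UMIs, 663 and 727 against 824 and 883, and fewer MRP UMIs, 25 and 26.8 against 89.1 and 95.3. Their median total was lower too, at 31906 and 35446 against 51913 and 53589 UMIs. As a share of all UMIs the mitochondrial values were 1.99% and 1.91% against 1.55% and 1.60%. No knockout cell fell in the 80% to 90% bin. At the class boundary, cells at 5% to 10% insulin (11 and 5 wild type, 69 and 23 knockout cells) had mitochondrial shares of all UMIs of 3.98% and 4.36% in wild type against 5.72% and 5.98% in knockout. Those at 10% to 15% had 3.48%, 3.25%, 5.06% and 5.32%, from only 4 and 4 wild type against 87 and 31 knockout cells.

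**Figure D5:**
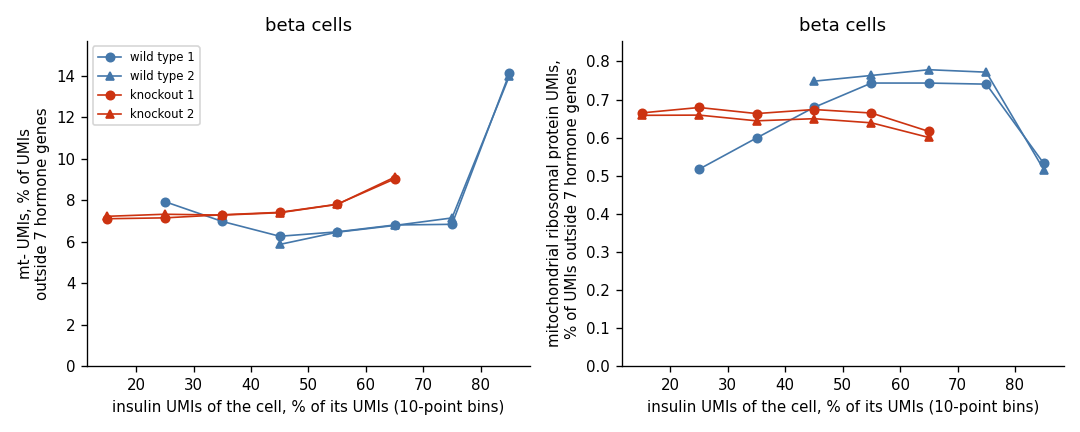
Beta cells grouped by the insulin share of their UMIs (x axis, 10-point bins with at least 20 cells; lines, libraries; blue wild type, red knockout; circles replicate 1, triangles replicate 2). Left, mitochondrially encoded UMIs and right, mitochondrial ribosomal protein UMIs, each as a percentage of UMIs outside 7 hormone genes; at 50% to 60% insulin the knockout libraries are higher on the left and lower on the right, while the ribosomal protein UMIs per cell were higher in knockout.

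Other nuclear genes of the same pathway were counted in beta cells from lists, with changes relative to the median gene; each named gene called lower was level or higher per cell, except where stated. Over all genes tested, 20.3% were called higher and 21.1% lower. Of 20 genes of mitochondrial transcription and genome maintenance 5 were called higher and 5 lower (25% and 25%), near those shares. Tfb1m, which methylates the small ribosomal RNA, had 1.52 and 1.74 normalised CPM in wild type against 3.21 and 3.42 in knockout beta cells (log2 change 1.02, SE 0.122, adjusted p = 0.00105). The kinase Tk2, which supplies nucleotides for mitochondrial DNA, rose (log2 change 0.66, SE 0.0799, adjusted p = 0.00111). The DNA-binding protein Ssbp1 and the elongation factor Tefm fell by 0.29 and 0.37, but both calls were lost without the first knockout library and without the second.

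Of 26 genes of RNA processing and stability 3 were called higher and 11 lower (11.5% and 42.3%, beside 20.3% and 21.1% of all genes). Lrpprc, which stabilizes mitochondrial mRNAs, showed the largest rise, with 26.0 and 24.1 normalised CPM in wild type against 69.6 and 58.2 in knockout beta cells (log2 change 1.35, SE 0.0977, adjusted p = 0.000181). Grsf1, a protein of mitochondrial RNA granules, rose by 0.38. Fastkd2, another RNA granule protein, fell (log2 change -0.88, SE 0.0867, adjusted p = 0.000528) with 0.222 and 0.240 UMIs per cell in wild type against 0.229 and 0.246 in knockout, and Trnt1, which adds CCA ends to transfer RNAs, fell by 0.42. Among 16 translation factors 1 was called higher and 3 lower (6.25% and 18.8%), both below the shares of all genes. The membrane insertase Oxa1l rose (log2 change 0.64, SE 0.0603, adjusted p = 0.000461), and the elongation factor Tsfm and Letm1 fell by 0.43 and 0.31. Letm1 was not called without the first knockout library.

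Ribosome assembly genes had 2 called higher and 7 lower of 22 (9.09% and 31.8%, beside 20.3% and 21.1% of all genes, median -0.11). The RNA methyltransferase Nsun4 rose (log2 change 0.49, SE 0.0887, adjusted p = 0.00494), whereas Mterf3 and the assembly factor Mpv17l2 fell by 0.49 and 0.52; Malsu1 rose by 0.19, a call lost without the first wild type library or either knockout library. Of 14 other genes of tRNA charging 1 was called higher and 2 lower (7.14% and 14.3%), both below the shares of all genes. Gars, the glycine synthetase of both cytosol and mitochondria, had 118 and 121 normalised CPM in wild type against 78.9 and 78.2 in knockout beta cells (log2 change -0.61, SE 0.0638, adjusted p = 0.000676). Kars, the dual lysine synthetase, rose by 0.28 (not called without the second knockout library), and Qrsl1 fell by 0.32 (not called without the first wild type library or either knockout library).

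Chaperones and proteases had 1 called higher and 9 lower of 18 (5.56% and 50%, beside 20.3% and 21.1% of all genes, median -0.21). The matrix chaperonin Hspd1 had 84.4 and 91.9 normalised CPM in wild type against 61.5 and 60.5 in knockout beta cells (log2 change -0.53, SE 0.0698, adjusted p = 0.00146), and the protease subunit Afg3l2, which matures an MRP, fell by 0.67. The protease Yme1l1 rose by 0.25, a call lost without either knockout library. Of 13 tested regulators of mitochondrial biogenesis 4 were called higher and 1 lower (30.8% and 7.69%). Nrf1, a transcription factor for many of these genes, had 14.4 and 15.5 normalised CPM in wild type against 28.2 and 30.5 in knockout beta cells (log2 change 0.97, SE 0.0705, adjusted p = 0.000181), and the nuclear receptor Esrrg rose by 0.70. The coactivator Ppargc1a fell, with 0.471 and 0.686 normalised CPM in wild type against 0.235 and 0.172 in knockout beta cells (log2 change -1.48, SE 0.312, adjusted p = 0.00943), and it was lower per cell too, at 0.0169 and 0.0251 UMIs per cell in wild type against 0.0153 and 0.0124 in knockout, where the change was not called.

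Nuclear OXPHOS genes had 2 called higher and 49 lower of 76 relative to the median gene (median -0.29), while scaled by cell number 70 were called higher. These were 2.63% and 64.5% beside 20.3% and 21.1% of all genes, and scaled by cell number 12651 of all 14817 genes were called higher. The supercomplex factor Cox7a2l rose, with 211 and 215 normalised CPM in wild type against 339 and 314 in knockout beta cells (log2 change 0.62, SE 0.0774, adjusted p = 0.00122), as did the complex III subunit Uqcrh, by 0.47. The complex I subunit Ndufc2 fell, with 216 and 239 normalised CPM in wild type against 130.0 and 122 in knockout beta cells (log2 change -0.85, SE 0.0829, adjusted p = 0.000504) but 7.72 and 8.75 UMIs per cell in wild type against 8.44 and 8.77 in knockout, and the complex III subunit Uqcrq fell by 0.68. In alpha cells 53 and in delta cells 38 of 76 were called lower and 0 higher relative to the median gene, where 9.22% and 4.76% of all genes were called lower. In a list of nuclear-retained RNAs and dissociation response genes, 3 of 12 were called higher in beta cells, 0 lower and 9 not called, where 20.3% of all genes were called higher; its immediate early genes Fosb and Egr1 had log2 changes of 0.91 and 0.58. Their part in these results was not tested.

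Whether the genotype effect differed between classes was tested as an interaction in edgeR, with the library as a block. Beta and alpha cells differed in 26 of 99 members, 17 with a higher and 9 with a lower effect in beta cells, where 12.1% and 13.6% of 14668 genes were called (25.7% in all); without the first knockout library 15 members differed. Of the mitochondrial genes 0 had a higher and 4 a lower effect in beta cells. mt-Nd2 had the largest difference of these: -0.14 in beta and 0.64 in alpha cells (difference -0.78, SE 0.116, adjusted p = 2.21e-05). With library size alone that difference was -0.10 and not called, while its share of mitochondrial UMIs, given above, was lower in knockout beta and higher in knockout alpha cells. mt-Nd3 (difference -0.45, SE 0.107, adjusted p = 0.00308), mt-Nd1 and mt-Atp8 were the others, and these 3 changed sign with library size alone, where 12 of the 13 mitochondrial genes had a higher and 0 a lower effect in beta cells. Under that scaling 9429 of all 14668 genes were called, 97.0% of them higher in beta cells. The difference of mt-Atp8 was not called without the first knockout library, and those of mt-Nd1 and mt-Atp8 not when scaled by cell number.

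MRP genes had 17 higher and 4 lower effects in beta than in alpha cells. Mrpl17 and Mrpl14 had log2 changes of 0.027 and 0.12 in beta against -0.45 and -0.35 in alpha cells (difference 0.48, SE 0.0773, adjusted p = 6.56e-05, and difference 0.48, SE 0.0818, adjusted p = 0.000122). Mrps33, Mrps34 and Mrpl54 differed in the same direction. Mrps22 and Mrpl41 went the other way, for Mrps22 by a difference -0.80, SE 0.161, adjusted p = 0.000631 and for Mrpl41 by a difference -0.42, SE 0.0786, adjusted p = 0.000305; with library size alone Mrpl41 changed sign and Mrps22 was not called. Lars2 had a smaller effect in beta cells (difference -0.31, SE 0.0799, adjusted p = 0.00625), a difference that changed sign with library size alone and was not called without the second knockout library or scaled by cell number.

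Beta and delta cells differed in 24 of 99 members, 12 each way, where 8.88% and 8.17% of 14629 genes were called (17% in all); without the first knockout library 10 members differed. Of the mitochondrial genes 0 had a higher and 8 a lower effect in beta cells. mt-Nd2 again led (difference -0.63, SE 0.0649, adjusted p = 9.74e-06), followed by mt-Nd3, mt-Nd4l, mt-Nd1, mt-Co3, mt-Nd4, mt-Cytb and mt-Atp6. All 8 changed sign with library size alone, where 12 of 13 had a higher and 0 a lower effect in beta cells, and scaled by cell number only mt-Nd2 kept its call. With library size alone 8825 of all 14629 genes were called, 98.2% of them higher in beta cells. Without the first knockout library mt-Co3, mt-Nd4, mt-Cytb and mt-Atp6 were not called; mt-Cytb and mt-Atp6 were not called without the second wild type library, nor mt-Cytb without the second knockout library. Lars2 had the largest difference of these genes (difference -0.88, SE 0.0761, adjusted p = 1.73e-06), not called with library size alone (adjusted p = 0.215). The alpha and delta comparisons share the beta cell libraries. Mrpl54 (difference 0.42, SE 0.0711, adjusted p = 0.000883) and Mrps33 had higher effects in beta than in delta cells, and Mrps12, Mrpl14 and Mrps34 did so too, the first not called without the first knockout library, Mrpl14 not without the second wild type library and Mrps34 without either of those.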

How the data were processed

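Single-cell UMI counts of 4 islet libraries were deposited; per the submitters' processing notes, Cell Ranger 3.0.0 and Seurat 2.3.4 with mm10 made the count tables that the authors deposited. The cells had been filtered before deposit, as the smallest gene count of 501 and the largest mitochondrial share of 9.96% show. Other settings are not given in the sources used here, and RNA in empty droplets was not analysed here.

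Doublets were scored against simulated doublets and removed at 0.8% per 1000 cells. UMIs were summed per class and library and compared with edgeR 4.0.16 in R 4.3.3 (filterByExpr, TMM, quasi-likelihood test, Benjamini-Hochberg over all genes, adjusted p under 0.05). Normalised CPM are counts over TMM-scaled library sizes. Shares and ratios were compared by exact two-sided permutation tests in SciPy 1.17.1. All 99 members had 1 gene of their symbol in GENCODE vM21. Alternatives were RLE, library size, cell number, DESeq2 1.42.0, filters, hormone or mt- genes left out, doublets kept, cells under 5% mitochondrial UMIs, doubled hormone minimums, each library left out and a replicate block. Insulin-matched beta cells, other cells without hormone cells and a crossed block were added after seeing the data. Motif cores of 7 letters replaced longer forms after those had been searched. The scripts were tested on simulated data. The members and lists were chosen with earlier results of these data known.

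Named are every mitochondrial gene and synthetase; in beta cells the 6 largest called MRP changes each way (at least 5 normalised CPM, no overlap) and the 3 most abundant; elsewhere up to 4 called members each way by p; up to 5 each way for class differences; and up to 2 called genes each way per pathway list. Others named were chosen after their values were seen.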

Additional observations from a re-analysis of the deposited data

Results flagged for a closer look

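The genotype effect differed between cell classes by the edgeR interaction test (adjusted p under 0.05) for the genes named here, given as the log2 effect in beta cells minus that in the other class. Between beta and alpha cells the effect was higher in beta cells for Mrps33 (0.39), Mrpl17 (0.48), Mrpl54 (0.39), Mrps34 (0.39) and Mrpl14 (0.48). It was lower in beta cells for Mrpl41 (-0.42), Mrps22 (-0.80), Lars2 (-0.31), mt-Nd1 (-0.43), mt-Nd2 (-0.78), mt-Atp8 (-0.25) and mt-Nd3 (-0.45). Between beta and delta cells the effect was higher in beta cells for Mrps33 (0.35), Mrps12 (0.36), Mrpl54 (0.42), Mrps34 (0.36) and Mrpl14 (0.40). It was lower in beta cells for Lars2 (-0.88), mt-Nd1 (-0.29), mt-Nd2 (-0.63), mt-Atp6 (-0.19), mt-Co3 (-0.26), mt-Nd3 (-0.40), mt-Nd4l (-0.36), mt-Nd4 (-0.22) and mt-Cytb (-0.20). With library size alone the difference changed sign for Mrpl41, Lars2, mt-Nd1, mt-Nd3 and mt-Atp8 against alpha cells, and for each of the 8 mitochondrial genes against delta cells, of which mt-Atp6 and mt-Cytb also changed sign when scaled by cell number. No group was large enough to look for single libraries that stood apart.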

How the results depend on the processing

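The choice of scaling decided the direction of most calls. The 49 members called in beta cells became 96 (95 higher, 1 lower) with library size alone and 95 (94 higher, 1 lower) scaled by cell number. In alpha cells 57 became 15 (12 higher, 3 lower) and 97 (96 higher, 1 lower), in delta cells 23 became 14 (11 higher, 3 lower) and 72 (72 higher, 0 lower), and in other cells 3 became 8 (8 higher, 0 lower) and 93 (93 higher, 0 lower). The share of called genes that were higher moved with it, in beta cells from 49.0% to 97.7% and 97.5%, in alpha cells from 40.2% to 95.0% and 99.7%, in delta cells from 38.2% to 86.8% and 99.6%, and in other cells from 47.6% to 96.0% and 99.8%. With library size alone the differences between classes became 93 (93 higher, 0 lower) and 87 (87 higher, 0 lower). DESeq2 gave 16 (7 higher, 9 lower) and 11 (3 higher, 8 lower) for those differences, where it called 1598 and 1231 genes in all. It gave 13 (6 higher, 7 lower) in delta and 7 (5 higher, 2 lower) in other cells, of 404 and 421 genes called. Without a filter delta and other cells gave 40 (7 higher, 33 lower) and 9 (7 higher, 2 lower), of 1607 and 858 genes called. In other cells the count was 0 with cells under 5% mitochondrial UMIs, and 11 (8 higher, 3 lower) with hormone minimums doubled. Leaving out 1 library gave 31 to 59 members in beta, 3 to 38 in alpha, 5 to 16 in delta and 1 to 5 in other cells, and 15 to 27 and 10 to 23 for the differences from alpha and delta cells; an arm with 1 library was assumed to vary like the other. The causes were not tested. Directions of the mitochondrial share in the 4 classes, and in beta cells of the ratios of mitochondrial to nuclear OXPHOS and of mitochondrial to cytosolic ribosomal protein UMIs, held under the alternatives run for them.

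Log2 values that changed sign scaled by cell number were, in beta cells, mt-Nd5 0.46, Rars2 0.59, Sars2 0.32, Yars2 0.39, Aars2 0.52, Mrps22 0.025, Mrpl41 0.23, Mrps31 0.29, Mrpl36 0.31, Mrpl21 0.35, Mrps10 0.36, Mrps21 0.50, Ssbp1 0.63, Tefm 0.54, Fastkd2 0.037, Trnt1 0.50, Letm1 0.61, Tsfm 0.48, Mterf3 0.42, Mpv17l2 0.40, Gars 0.31, Qrsl1 0.60, Afg3l2 0.25, Hspd1 0.39, Ndufc2 0.064, Uqcrq 0.24; in alpha cells Mrpl54 0.32, Mrps16 0.35, mt-Atp8 0.054, mt-Nd5 0.49; in delta cells Mrpl54 0.20, Mrpl48 0.21; and for beta against delta cells mt-Atp6 0.032, mt-Cytb 0.022. With library size alone they were, in beta cells, mt-Nd5 0.45, Rars2 0.58, Sars2 0.32, Yars2 0.39, Aars2 0.52, Mrps22 0.029, Mrpl41 0.23, Mrps31 0.29, Mrpl36 0.30, Mrpl21 0.35, Mrps10 0.36, Mrps21 0.49, Ssbp1 0.62, Tefm 0.53, Fastkd2 0.033, Trnt1 0.49, Letm1 0.60, Tsfm 0.48, Mterf3 0.42, Mpv17l2 0.39, Gars 0.30, Qrsl1 0.59, Afg3l2 0.24, Hspd1 0.38, Ndufc2 0.059, Uqcrq 0.23; for beta against alpha cells Mrpl41 0.26, mt-Nd3 0.24, Lars2 0.38, mt-Nd1 0.26, mt-Atp8 0.44; and for beta against delta cells mt-Nd2 0.12, mt-Nd3 0.34, mt-Nd4l 0.39, mt-Nd1 0.45, mt-Atp6 0.56, mt-Co3 0.48, mt-Nd4 0.52, mt-Cytb 0.55.

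Replicate numbers did not pair the libraries: deviations of same-numbered libraries correlated at 0.027 in beta, -0.0041 in alpha, 0.117 in delta and -0.18 in other cells. With the replicate number as a block, 44 members were called in beta, 65 in alpha, 28 in delta and 3 in other cells, and 35 and 31 differed between classes; of named genes the block ended the calls of mt-Co3, Aars2, Mrpl45 and Malsu1 in beta and of mt-Co2 and mt-Cytb in alpha cells. The crossed pairing, chosen after seeing the data, gave 19 (8 higher, 11 lower) in other cells. Named results kept their direction and side of the threshold in 1630 of 1893 comparisons with an alternative; depth limits the synthetases other than Lars2, with 5 to 58 UMIs a library for Aars2, Sars2, Tars2 and Vars2 in delta cells.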
